A study of Homo sapiens with 3 samples.

Results

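Amino acid transporters of the SLC1, SLC6, SLC7, SLC36, SLC38 and SLC43 families were followed at the mRNA level in HCC827 cells, a long-established line from a human lung adenocarcinoma with an activating EGFR mutation. The members were all genes of the expression table whose symbol belongs to one of these 6 solute carrier families, except the cystine carrier SLC7A11, which was left out by rule. This gave 56 of the 20332 genes in the table. Of these, 22 had a mean of at least 1 TPM (transcripts per 1000000, a length-corrected share of the signal) over the libraries, as did 11600 genes of the whole table, and these 22 are called measured here. The mean takes in the compound libraries and DMSO alike, and no ratio between them enters this rule. The choice was not blind, however: the families and the further gene lists were chosen with earlier results of these data known.

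The series holds 3 RNA-seq libraries, each the only one of its group. The compound 1 library came from HCC827 cells given compound 1 at 5 μM for 24 h, and the compound 2 library from cells given compound 2 at the same dose for the same time. The DMSO library came from HCC827 cells given DMSO, the vehicle, with no time stated in the labels. The series title describes the compounds as daphnane diterpenoids and ties them to the ATR-controlled DNA damage response. Because no group has a second library, spread between replicates is unknown and neither tests nor intervals are given, and "higher" and "lower" below describe 2 libraries and not 2 conditions. Both compounds were set against the same DMSO library, so an unusual value there would shift both comparisons alike.

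The cells carried the markers of an epithelial line. All 6 epithelial markers (EPCAM, CDH1, KRT7, KRT8, KRT18 and KRT19) were at 179 TPM or more in every library, with sums of 7454 TPM after compound 1, 7047 TPM after compound 2 and 15268 TPM in the DMSO library. The 6 leukocyte, 6 fibroblast, 6 endothelial and 5 neuroendocrine markers summed to at most 2.00 TPM per list and library. DCN, LUM and COL1A2 (fibroblast), TEK, KDR and CDH5 (endothelial) and CHGA and INSM1 (neuroendocrine) were listed at 0 throughout, and no leukocyte marker exceeded 0.809 TPM in any library. Mitochondrially encoded mRNAs held 2.00% of all TPM after compound 1, 2.74% after compound 2 and 4.24% in the DMSO library. The part that these shifts in epithelial and mitochondrial signal play in the transporter values was not tested, apart from a rescaling without the mitochondrial genes, which left every call of a member in place.

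Cells cannot make all the amino acids they need and use membrane carriers to take them up, to exchange one for another and to release them from lysosomes. Sodium-coupled carriers such as those of the SLC38 and SLC1 families load the cell with small neutral amino acids such as glutamine, and exchangers of the SLC7 family trade that pool for leucine and other large neutral amino acids. Several carrier genes are known targets of ATF4, the transcription factor that is translated when the kinase GCN2 senses a lack of amino acids, and the lysosomal members report amino acids to the growth kinase complex mTORC1. In tumour cells, SLC1A5 and SLC7A5 are the best-known suppliers of glutamine and leucine.

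Taken as a group, the carriers were at a higher summed level after either compound, and the excess lay mainly in the SLC38 and SLC1 families. The 56 members summed to 1582 TPM after compound 1, 1391 TPM after compound 2 and 906 TPM in the DMSO library. SLC7A5 alone made up 28.7% of this sum after compound 1, 30.7% after compound 2 and 45.3% in the DMSO library. Without it the sums were 1128, 964 and 495 TPM after compound 1, after compound 2 and in the DMSO library. Its own level hardly differed between the libraries, so its smaller share after the compounds came from the greater levels of other members.

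**Figure D1:**
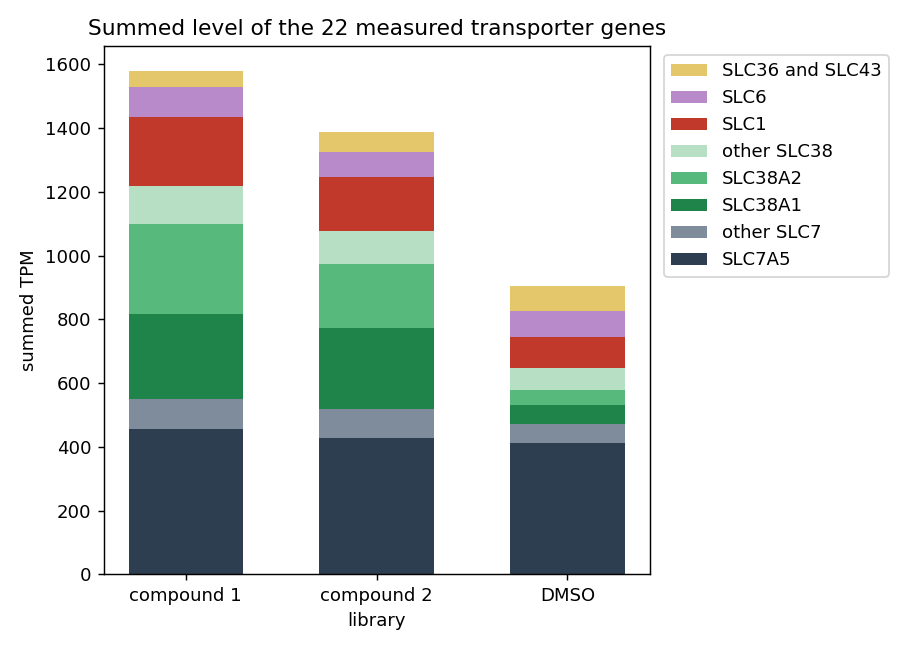
Summed TPM of the 22 measured transporter genes in the compound 1, compound 2 and DMSO libraries (1 library each, no error bars), stacked by gene or family. The SLC7A5 block keeps its height (454, 426 and 410 TPM), while the SLC38A1 and SLC38A2 blocks together hold 551, 457 and 107 TPM.

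After compound 1, 8 of the 22 measured members (36.4%) had a level 2-fold or more above DMSO and 1 (4.55%) a level 2-fold or more below it, on the scale of TPM + 1. Over all 11600 genes, these shares were 14.7% above and 8.09% below. After compound 2, 6 members (27.3%) were higher and 1 was lower, against 12.6% and 6.56% of all genes. The members' median log2 ratio was 0.50 after compound 1 and 0.45 after compound 2, beside medians over all genes of 0.11 and 0.09. Of the 22 ratios, 17 were above 0 and 5 below after each compound, and 17 (compound 1) and 14 (compound 2) lay above the median of all genes.

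The higher members after compound 1 were SLC38A2, SLC6A9, SLC38A1, SLC1A4, SLC38A9, SLC36A4, SLC38A6 and SLC1A5. After compound 2 they were the same genes without SLC38A6 and SLC1A5. SLC43A3 was the lower member in both comparisons. Longer transcripts had higher ratios throughout the table: the median log2 ratio after compound 1 was 0.48 in the longest 25% of transcripts and -0.18 in the shortest 25%, and the members' transcripts were long, with a median of 4719 bases against 3665 bases for all genes. Once a trend fitted on length and GC content of the transcripts was taken off, 6 members were higher and 1 lower after compound 1, with a median of 0.27, and 4 were higher and none lower after compound 2, with a median of 0.26. The 4 were SLC38A1, SLC38A2, SLC6A9 and SLC1A5, the last not past 2-fold after compound 2 before the subtraction. By the same subtraction, 8.43% of all genes were higher and 9.01% lower after compound 1, and 6.85% were higher and 7.49% lower after compound 2.

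**Figure D2:**
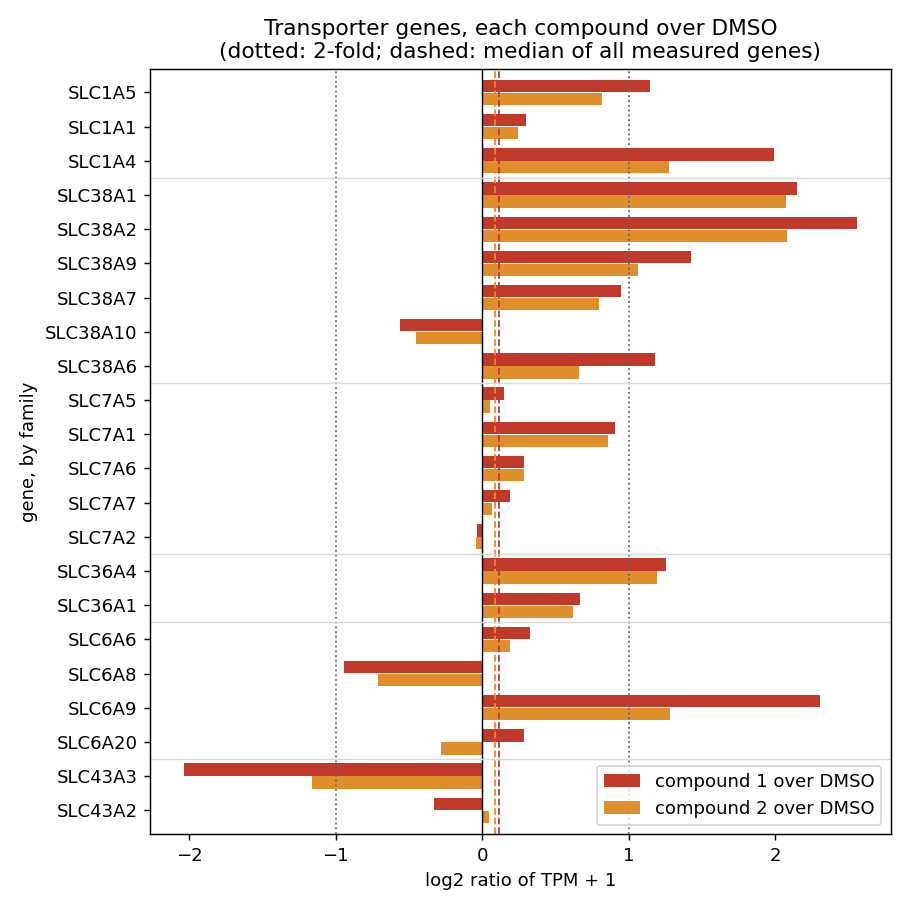
Log2 ratio of TPM + 1 for each measured transporter gene, compound 1 over DMSO (upper bar) and compound 2 over DMSO (lower bar), grouped by family. Dotted lines mark 2-fold and dashed lines the medians of all measured genes (0.11 and 0.09), and the longest bars belong to SLC38A2, SLC6A9 and SLC38A1 on the higher side and to SLC43A3 on the lower side.

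The SLC38 family held the greatest differences in TPM. SLC38A1 and SLC38A2 encode the sodium-coupled system A carriers SNAT1 and SNAT2, which bring glutamine, alanine and other small neutral amino acids into the cell, and SLC38A2 is known as a gene whose mRNA is raised when amino acids are scarce. SLC38A2 (ENSG00000134294, chromosome 12, 46358189 to 46372867, minus strand, GRCh38) was at 283 TPM after compound 1, 203 TPM after compound 2 and 47.3 TPM in the DMSO library. Relative to DMSO, the log2 ratio was 2.56 for compound 1 and 2.08 for compound 2. SLC38A1 (ENSG00000111371, chromosome 12, 46183063 to 46270017, minus strand) was at 268 TPM after compound 1, 255 TPM after compound 2 and 59.7 TPM in the DMSO library, with log2 ratios of 2.15 and 2.08. Both genes stood at more than 4-fold the DMSO level after each compound.

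The system A pair summed to 551 TPM after compound 1, 457 TPM after compound 2 and 107 TPM in the DMSO library, so that the pair exceeded SLC7A5 after each compound and was below it in the DMSO library. SLC38A2 ranked 511th among all genes after compound 1, 763rd after compound 2 and 3206th in the DMSO library. The 2 genes are neighbours on chromosome 12, with 88.2 kb between them, and the next family gene on that chromosome, SLC38A4, a system A carrier known from liver, lies 391.9 kb beyond SLC38A2. SLC38A4 was listed at 0 in every library. After the length and GC subtraction, the log2 ratios were 1.92 and 1.45 for SLC38A2 and 1.41 and 1.38 for SLC38A1, after compounds 1 and 2 in that order.

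Lysosomal members of the family were also at higher levels after the compounds. SLC38A9 encodes the lysosomal arginine sensor that signals to mTORC1 (ENSG00000177058, chromosome 5, 55625845 to 55773194, minus strand). It was at 49.6 TPM after compound 1, 38.4 TPM after compound 2 and 17.9 TPM in the DMSO library, with log2 ratios of 1.42 and 1.06. After the length and GC subtraction these were 0.78 and 0.49, under 2-fold, and the ratio after compound 2 stayed past 2-fold in 2 of the 6 alternatives that can change it. SLC38A7, which exports glutamine and asparagine from lysosomes, was at 38.5, 34.6 and 19.5 TPM after compound 1, after compound 2 and in the DMSO library, and its log2 ratios of 0.95 and 0.80 did not reach 2-fold.

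The remaining SLC38 genes went in different directions. SLC38A6 (ENSG00000139974, chromosome 14, 60981114 to 61083733, plus strand) was at 16.2 TPM after compound 1, 11.0 TPM after compound 2 and 6.61 TPM in the DMSO library. Its log2 ratio was 1.18 after compound 1 and 0.66 after compound 2, so only the first passed 2-fold, and with a pseudocount of 5 it was 0.87. SLC38A6 overlaps exons of TRMT5, a tRNA methyltransferase gene on the opposite strand, which was at 16.2, 20.1 and 14.4 TPM after compound 1, after compound 2 and in the DMSO library. SLC38A10 was lower after both compounds without reaching 2-fold, at 16.0 TPM after compound 1, 17.4 TPM after compound 2 and 24.1 TPM in the DMSO library (log2 ratios -0.56 and -0.45). Over its 11 members, the family summed to 671 TPM after compound 1, 559 TPM after compound 2 and 175 TPM in the DMSO library.

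Among the SLC1 family, the neutral amino acid exchangers were higher and the glutamate carrier was not past 2-fold. SLC1A5 encodes ASCT2, the sodium-dependent exchanger best known for glutamine uptake (ENSG00000105281, chromosome 19, 46774883 to 46788594, minus strand). Its level was 200.1 TPM after compound 1, 159 TPM after compound 2 and 89.9 TPM in the DMSO library. The log2 ratios were 1.15 after compound 1 and 0.82 after compound 2, the second under 2-fold. After the length and GC subtraction they were 1.37 and 1.03, both past 2-fold. SLC1A5 overlaps exons of an antisense gene, and 27.0% of the 31-base words of its longest transcript also occur, on either strand, in other genes, so part of its signal could belong elsewhere.

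SLC1A4, which encodes the related exchanger ASCT1 for alanine, serine and cysteine (ENSG00000115902, chromosome 2, 64988477 to 65023865, plus strand), was a low gene with a large ratio. It was at 8.997 TPM after compound 1, 5.09 TPM after compound 2 and 1.52 TPM in the DMSO library. The log2 ratios of 1.99 and 1.27 depended on the pseudocount because the DMSO value is low: with 0.1 in place of 1 they were 2.49 and 1.68, and with 5 they were 1.10 and 0.63. After the length and GC subtraction the second was 0.97, under 2-fold. SLC1A1 encodes EAAT3, a carrier of glutamate, aspartate and cysteine, and was at 6.11, 5.85 and 4.77 TPM after compound 1, after compound 2 and in the DMSO library (log2 ratios 0.30 and 0.25). Its family mates SLC1A3, SLC1A6 and SLC1A7 were listed at 0 throughout, and SLC1A2, the main glutamate carrier of astrocytes, at 0.025 TPM in the DMSO library and 0 after both compounds.

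**Figure D3:**
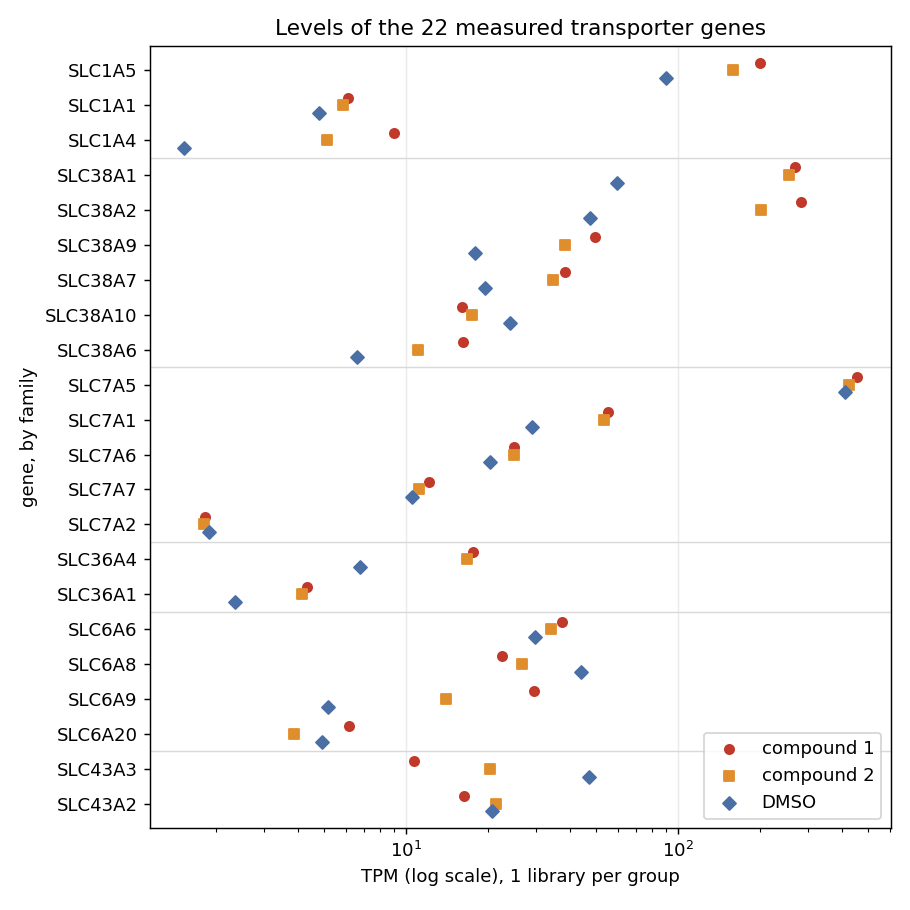
TPM of each measured transporter gene on a log axis in the compound 1 (circle), compound 2 (square) and DMSO (diamond) libraries, grouped by family. The compound symbols lie to the right of the DMSO diamond for all measured SLC1 genes and for the SLC38 genes except SLC38A10, and to its left for SLC43A3 and SLC6A8.

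No SLC7 gene of the set passed 2-fold, although this family held the most abundant transporter. SLC7A5 encodes LAT1, the exchanger of leucine and other large neutral amino acids, which works only as a heterodimer with the heavy chain encoded by SLC3A2. It was at 454 TPM after compound 1, 426 TPM after compound 2 and 410 TPM in the DMSO library, and ranked 313th, 338th and 327th among all genes. Its log2 ratios were 0.15 and 0.05, close to the medians of all genes. SLC3A2 was at 490 TPM after compound 1, 377 TPM after compound 2 and 356 TPM in the DMSO library (0.46 and 0.08).

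The other measured light chains of that heavy chain within the set were level as well. SLC7A6 and SLC7A7 encode y+LAT2 and y+LAT1, which exchange cationic for neutral amino acids. SLC7A6 was at 24.9 TPM after compound 1, 24.98 TPM after compound 2 and 20.3 TPM in the DMSO library. It shares 58.6% of its 31-base words with other genes, SLC7A6OS closest, so its value is uncertain. SLC7A7 was at 12.2, 11.1 and 10.5 TPM after compound 1, after compound 2 and in the DMSO library. Together the 3 light chains summed to 491 TPM after compound 1, 462 TPM after compound 2 and 441 TPM in the DMSO library. With SLC7A11, the cystine and glutamate exchanger left out of the family set, the light chains came to 569, 499 and 444 TPM, SLC7A11 itself being at 77.2 TPM after compound 1, 36.9 TPM after compound 2 and 2.44 TPM in the DMSO library.

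Cationic amino acids enter mainly through SLC7A1, which encodes CAT1, a carrier of arginine and lysine. SLC7A1 was at 55.4 TPM after compound 1, 53.5 TPM after compound 2 and 29.1 TPM in the DMSO library, with log2 ratios of 0.91 and 0.86, just under 2-fold. SLC7A2, which encodes CAT2, was the lowest measured member, at 1.82, 1.80 and 1.88 TPM after compound 1, after compound 2 and in the DMSO library (-0.03 and -0.04, or -0.77 and -0.74 after the length and GC subtraction). Its mean was 1.84 TPM, and that of SLC7A9, the member just outside the limit of 1 TPM, was 0.62.

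Both measured SLC36 genes were at higher levels after each compound. SLC36A4 encodes PAT4, a carrier of proline and tryptophan (ENSG00000180773, chromosome 11, 93144171 to 93197964, minus strand). It was at 17.5 TPM after compound 1, 16.8 TPM after compound 2 and 6.78 TPM in the DMSO library, log2 ratios of 1.25 and 1.19. The length and GC subtraction brought these to 0.28 and 0.34, the largest loss among the members past 2-fold; its longest transcript has 6012 bases and a GC content of 35.0%. SLC36A1, which encodes the lysosomal carrier PAT1 of small neutral amino acids, was at 4.32, 4.13 and 2.35 TPM after compound 1, after compound 2 and in the DMSO library (0.67 and 0.62).

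The measured SLC6 genes went in different directions. SLC6A9 encodes GlyT1, the sodium- and chloride-coupled glycine carrier (ENSG00000196517, chromosome 1, 43991500 to 44031467, minus strand), and was at 29.4 TPM after compound 1, 14.0 TPM after compound 2 and 5.15 TPM in the DMSO library. Its log2 ratios were 2.31 and 1.28, the second 0.90 with a pseudocount of 5. After the length and GC subtraction they were 2.60 and 1.56. SLC6A9 overlaps exons of CCDC24 on the other strand, and CCDC24 was in the opposite order, at 7.94, 8.37 and 11.4 TPM after compound 1, after compound 2 and in the DMSO library.

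SLC6A8, which carries creatine and not an amino acid used in proteins, was lower after both compounds, at 22.5 TPM after compound 1, 26.6 TPM after compound 2 and 44.1 TPM in the DMSO library. Its log2 ratios of -0.94 and -0.71 were under 2-fold, and the first passed it (-1.05) under upper-quartile and median-of-ratios scaling. SLC6A8 shares 22.6% of its 31-base words with other genes, the pseudogene SLC6A10P closest, which makes its level uncertain. The taurine carrier gene SLC6A6 was at 37.5, 34.0 and 29.7 TPM after compound 1, after compound 2 and in the DMSO library (0.32 and 0.19). SLC6A20, which encodes a proline carrier, was at 6.16, 3.86 and 4.89 TPM, with ratios of opposite sign (0.28 and -0.28). Over the whole family the summed level was 96.8 TPM after compound 1, 80.04 TPM after compound 2 and 85.0 TPM in the DMSO library, and after compound 1 the higher SLC6A9 level and the lower SLC6A8 level nearly offset each other in it.

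SLC43A3 was the member at the lower end. Although it belongs by symbol to a family of amino acid carriers, its product is known as an equilibrative carrier of purine nucleobases. SLC43A3 (ENSG00000134802, chromosome 11, 57406954 to 57427580, minus strand) was at 10.7 TPM after compound 1, 20.4 TPM after compound 2 and 46.9 TPM in the DMSO library, log2 ratios of -2.04 and -1.16. It shares 48.7% of its 31-base words with other genes, chiefly with AP000781.2, a gene annotated over it on the same strand, so the split of reads between them is uncertain. SLC43A2, which encodes LAT4, a facilitative carrier of large neutral amino acids, was at 16.3, 21.4 and 20.7 TPM after compound 1, after compound 2 and in the DMSO library (-0.33 and 0.05).

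The 34 members below a mean of 1 TPM were 21 listed at 0 in every library and 13 with a value in at least 1 library. Beside those of the SLC1 family, the genes listed at 0 included SLC6A2, SLC6A5, SLC6A7, SLC6A13, SLC6A15, SLC6A18, SLC6A19, SLC7A3, SLC7A10, SLC7A13, SLC7A14, SLC36A2, SLC36A3, SLC38A3, SLC38A4, SLC38A8 and SLC38A11. They include carriers known from neurons, such as the noradrenaline carrier SLC6A2, and from kidney and gut, such as SLC6A19. The 13 low genes were SLC1A2, SLC6A3, SLC6A4, SLC6A11, SLC6A12, SLC6A14, SLC6A16, SLC6A17, SLC7A4, SLC7A8, SLC7A9, SLC38A5 and SLC43A1. SLC6A14, a carrier of neutral and cationic amino acids, was at 0.522 TPM after compound 1, 0.926 TPM after compound 2 and 0.077 TPM in the DMSO library. SLC43A1, which encodes LAT3, was at 0.730, 0.314 and 0.049 TPM. Such values rest on few reads.

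Compounds 1 and 2 were compared with each other as the only pair, at the same dose and time. For most carriers the 2 compound libraries were close. Of the 22 measured members, 0 reached 2-fold above compound 1 and 1 (4.55%) was 2-fold or more below it, beside 0.293% and 0.552% of all genes. The lower gene was SLC6A9, at 14.0 TPM after compound 2 and 29.4 TPM after compound 1 (log2 ratio -1.02). This is at the limit, and it was -0.86 with a pseudocount of 5 and -0.999 under median-of-ratios scaling.

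The next largest differences were under 2-fold. SLC43A3 was at 20.4 TPM after compound 2 and 10.7 TPM after compound 1 (log2 ratio 0.87). SLC1A4 was at 5.09 TPM after compound 2 and 8.997 TPM after compound 1 (-0.71), SLC6A20 at 3.86 and 6.16 TPM (-0.56), SLC38A6 at 11.0 and 16.2 TPM (-0.51) and SLC38A2 at 203 and 283 TPM (-0.48). For these genes except SLC6A20, the compound 2 level lay between those of compound 1 and DMSO. SLC38A1 was at 255 TPM after compound 2 and 268 TPM after compound 1 (-0.07).

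Across the members, 17 of 22 ratios of compound 2 over compound 1 were below 0 and 5 above, with a median of -0.08. Over all genes, 5953 were below 0 and 5642 above, with a median of -0.01. The labels give no structure that tells the compounds apart beyond their numbers, and without replicates no interval of any difference could be given, so neither a difference nor a likeness between the compounds is established for any carrier. SLC7A11, outside the set, was at 36.9 TPM after compound 2 and 77.2 TPM after compound 1 (-1.04).

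**Figure D4:**
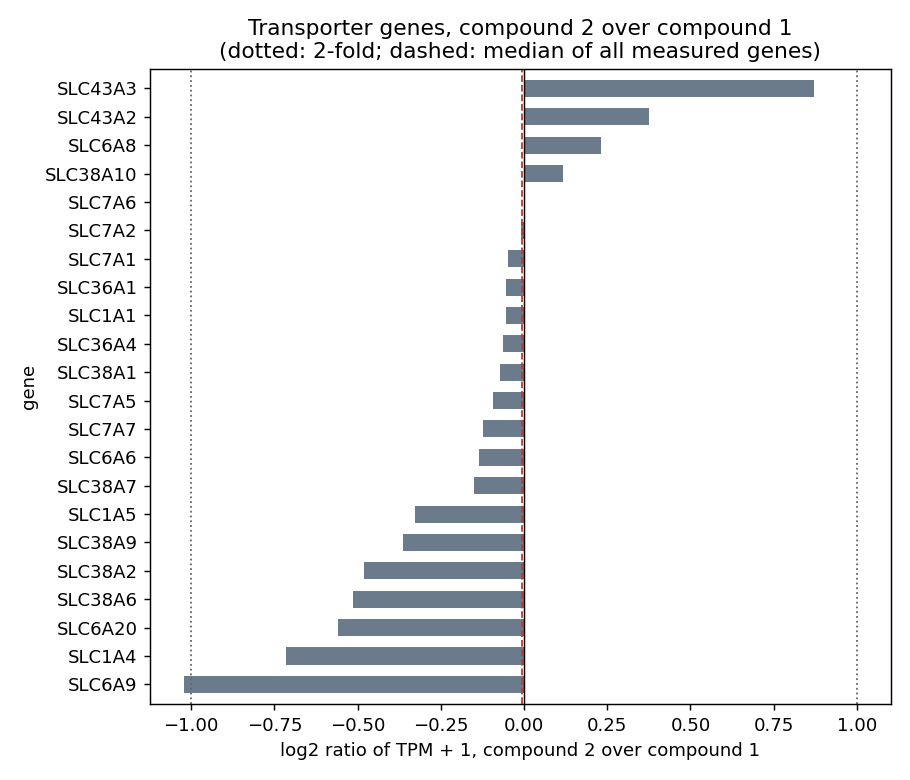
Log2 ratio of TPM + 1, compound 2 over compound 1, for the 22 measured transporter genes in order of the ratio. Dotted lines mark 2-fold and the dashed line the median of all measured genes (-0.01); SLC43A3 is at the top (0.87) and SLC6A9 at the bottom (-1.02).

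Further gene lists of amino acid transport and sensing were set beside the carriers. Among partner proteins of the carriers, SLC3A2 is given above, and CLTRN, which encodes collectrin, the partner of renal neutral amino acid carriers, was at 3.50 TPM after compound 1, 2.37 TPM after compound 2 and 13.5 TPM in the DMSO library (log2 ratios -1.69 and -2.11). SLC3A1 had a mean below 1 TPM. Of 24 amino acid and peptide carriers of other families, mostly mitochondrial and lysosomal, 15 were measured and none passed 2-fold after either compound. Their median log2 ratios were -0.33 after compound 1 and -0.11 after compound 2, beside 0.11 and 0.09 over all genes. Of all genes, 14.7% were higher and 8.09% lower after compound 1, and 12.6% and 6.56% after compound 2. The cystine exporter gene of lysosomes, CTNS, was at 56.0, 47.6 and 28.4 TPM after compound 1, after compound 2 and in the DMSO library (0.96 and 0.73).

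Most genes of amino acid sensing upstream of mTORC1 were within 2-fold. Of 34 measured genes, 4 were past 2-fold above DMSO and 1 below it after each compound, with medians of 0.14 and 0.06. The 11.8% above DMSO was under the share of all genes, 14.7% after compound 1 and 12.6% after compound 2, so the list did not stand out by its count. SESN2, the leucine sensor sestrin 2, was at 103 TPM after compound 1, 60.4 TPM after compound 2 and 6.82 TPM in the DMSO library (3.74 and 2.97). The folliculin partner gene FNIP1 (1.86 and 1.60) and the Ragulator subunit gene LAMTOR3 (1.21 and 1.03) were also higher after both. RRAGC, which encodes a Rag GTPase, passed 2-fold after compound 1 (1.31, and 0.91 after compound 2) and FNIP2 after compound 2 (1.15, and 0.90 after compound 1). The lower gene was LAMTOR4, another Ragulator subunit (-1.34 and -1.21).

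In the GCN2 and ATF4 list, 9 of 13 genes passed 2-fold above DMSO after compound 1 and 5 of 13 after compound 2, 0 passed it below, and the medians were 1.22 and 0.96. Of all genes, 14.7% passed it above and 8.09% below after compound 1, and 12.6% and 6.56% after compound 2. The list was chosen with earlier results of these data known, so its counts beside these shares are description only. The higher list genes were led by the stress transcription factor genes ATF3 (3.05 and 2.23) and DDIT3 (2.50 and 1.70). Next came CEBPG (2.09 and 1.48), a dimer partner of ATF4, and PPP1R15A (2.03 and 1.79), which encodes the phosphatase subunit GADD34. TRIB3 (1.90 and 0.99), a pseudokinase gene, and CEBPB (1.57 and 1.40), a transcription factor gene, followed. ATF4 itself, which is controlled mainly in translation, was at 811 TPM after compound 1, 638 TPM after compound 2 and 477 TPM in the DMSO library (0.77 and 0.42). The kinase gene EIF2AK4, which encodes GCN2, was at 23.5, 27.9 and 22.7 TPM (0.05 and 0.28). The list also holds the kinase genes EIF2AK3 (1.22 and 0.52), EIF2AK2 (1.04 and 0.96) and EIF2AK1 (0.01 and 0.01). EIF2AK3, EIF2AK2 and PPP1R15B (1.04 and 0.91) were the other list genes past 2-fold, after compound 1 only.

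Promoter sequence was available for 19 of the 22 measured members, in 32 windows of the 250 bases before a start site (RefSeq, GRCh38.p14). The ATF4 and C/EBP composite element, searched as TGATGNAA on both strands, was found in 1 of the 19 genes (5.26%), against 2.24% of all measured genes with a promoter and 3.89% of all genes with one. The AP-1 element, searched as TGANTCA on both strands, was found in 4 of 19 genes (21.1%), against 6.0% and 8.06%. For the antioxidant response element of NRF2 (TGACNNNGC) the figures were 4 of 19 (21.1%), 15.8% and 13.2%, and for the E-box CACGTG 4 of 19 (21.1%), 11.4% and 7.73%. A gene can have several windows, which raises the shares per gene. By window, the composite element was in 3.125% for members, 1.64% for all measured genes and 3.14% for all promoters. In the same order, AP-1 was in 12.5%, 4.46% and 6.57%. The antioxidant element was in 12.5%, 11.7% and 10.9%, and the E-box in 12.5%, 8.36% and 6.34%. The AP-1 genes were SLC36A4, SLC38A1, SLC38A9 and SLC43A2. The antioxidant element was found at SLC1A5, SLC7A1, SLC7A6 and SLC7A7, and the E-box at SLC1A5, SLC36A1, SLC7A5 and SLC7A7. The matches are letters in a window and not shown to be bound, and their part in the mRNA levels was not tested.

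The 5 matches of the first 2 elements are shown because they are the stress and AP-1 motifs found at genes described above, each as 30 bases on the gene's strand, 5′ to 3′, with the element in capitals. All lie upstream of an alternative start and within an exon or intron of another transcript of the same gene.
SLC1A5, chr19:46784893-46784922, minus strand: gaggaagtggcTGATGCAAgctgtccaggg
SLC38A1, chr12:46266555-46266584, minus strand: ttgaaatagagTGACTCAccgggaggggcg
SLC38A9, chr5:55693058-55693087, minus strand: ccttattttttTGAGTCAcaatgggtcttc
SLC36A4, chr11:93197448-93197477, minus strand: agcctgcgccgTGACTCAcggtttttttcc
SLC43A2, chr17:1605050-1605079, minus strand: gagtgtggtggTGAGTCAggaaacagctcc
The composite element of SLC1A5 ended 90 bases before its start site. The AP-1 letters ended 51 bases before the start in SLC38A1, 17 in SLC38A9, 34 in SLC36A4 and 28 in SLC43A2, and read TGACTCA in SLC38A1 and SLC36A4 but TGAGTCA in SLC38A9 and SLC43A2.

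The genes past 2-fold differed in how far their ratios moved with the processing. SLC38A2 and SLC38A1 stayed past 2-fold after both compounds under all 6 alternatives that can change a ratio, with lowest values of 1.92 and 1.41 after compound 1. SLC6A9 did so after compound 1, where its lowest value was 1.76, and SLC1A5 and SLC1A4 after compound 1, where theirs were 1.04 and 1.10. SLC43A3 was lowest at -2.14 and highest at -1.73 after compound 1, and highest at -0.95 after compound 2. SLC38A9, SLC36A4 and SLC38A6 each were under 2-fold in at least 1 alternative after compound 1.

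**Figure D5:**
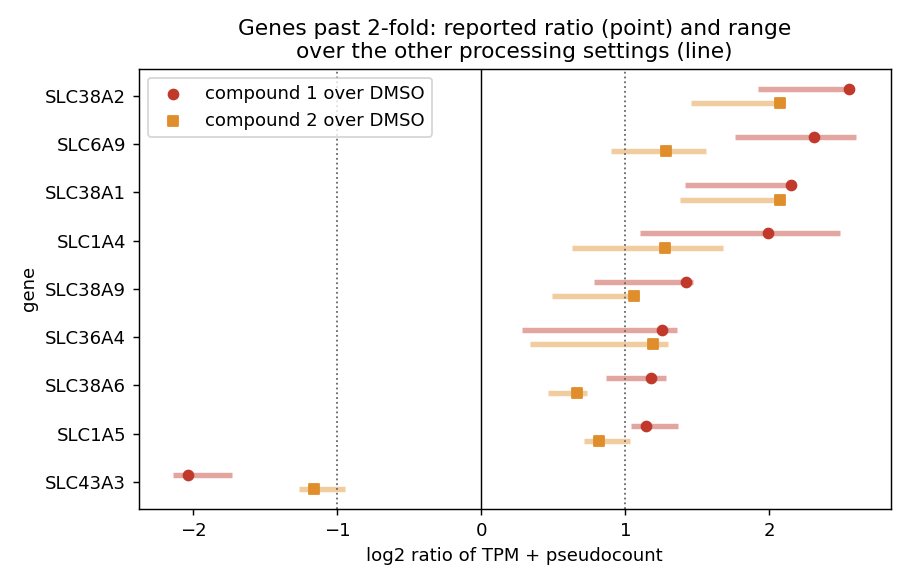
Log2 ratio of the 9 transporter genes past 2-fold, compound 1 over DMSO (circle) and compound 2 over DMSO (square), with a line for the range over the 6 other processing settings that can change a ratio. The lines of SLC38A2 and SLC38A1 stay right of the dotted 2-fold mark, while those of SLC36A4 reach 0.28 and 0.34.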

How the data were processed

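The authors deposited 1 table, whose headers call the values of each library FPKM. Each deposited column summed to 1000000, so the values were treated as TPM. Bowtie 0.12.2 and the builds GRCh38.p12 and mm8 are listed, per the submitters' processing notes, with no role; the counting step is not given in the sources used here, nor whether the kit marked strand, so overlapping genes cannot be told apart. TPM is a share, so a gain in some genes lowers all others.

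Ratios were log2 of TPM + 1 (python 3.11.15, pandas 2.3.3) for genes averaging 1 TPM or more. Past 2-fold means an absolute log2 ratio of at least 1, without a test. Depth was estimated from steps in low values of single-transcript genes: 1 read per kb was worth about 0.1065 TPM after compound 1, 0.123 after compound 2 and 0.114 in the DMSO library, with 60.2%, 59.8% and 57.1% of those values within 0.1 read of whole. The measured members then rest on about 80 reads (SLC1A4, DMSO) to 20300 reads (SLC38A1, compound 1). These steps were fitted to the same values and are approximate. Coordinates, transcript lengths and shared 31-base words came from GENCODE 29 on GRCh38, which held 20089 of the gene IDs. Functions were tested on simulated data.

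All measured members were named by rule; other lists named genes past 2-fold, up to 6. CTNS, ATF4 and EIF2AK4, under 2-fold, were added after their values were seen. Members and lists were chosen with earlier results of these data known. SAMTOR of the mTORC1 list matched no symbol of the table. A planned comparison of protein sequences was not made. A few genes are not reported here.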

Additional observations from a re-analysis of the deposited data

Results flagged for a closer look

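SLC6A20 and SLC43A2 were picked out because their level lay on opposite sides of DMSO after the compounds. SLC6A20 had a log2 ratio of 0.28 after compound 1 and -0.28 after compound 2, and SLC43A2 -0.33 after compound 1 and 0.046 after compound 2. Each rests on 1 library per group, the difference between the compounds was not tested, and the small ratio of SLC43A2 after compound 2 changed sign in 3 of the 6 alternatives that can change it.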

How the results depend on the processing

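No paired analysis was possible because each group has 1 library, and for the same reason no library could be left out. Of 132 recomputed counts, medians and family sums, 121 stayed within 1.5 times, and no gene past 2-fold changed sign. The family sums were recomputed only under rescalings that multiply all members of a library by a common factor. All families then shifted alike and by little, so the sums could hardly move and add little to that tally. The medians add little to it either. They were allowed a shift of 1.5-fold, which is more than the main log2 medians of 0.50, 0.45 and -0.08. A fall to 0 thus counted as staying. The counts that moved were these. With a pseudocount of 5, 2 members were higher after compound 2 and 0 were lower for compound 2 against compound 1. Median-of-ratios scaling gave 2 lower after compound 1 and 0 for compound 2 against compound 1, and upper-quartile scaling gave 2 lower after compound 1, SLC6A8 being the added gene under both. Length and GC subtraction gave 0 lower after compound 2. A 1.5-fold threshold gave 2 lower after compound 1, 11 higher and 2 lower after compound 2, and 1 higher and 2 lower for compound 2 against compound 1. The members' median log2 ratio lay between 0.27 and 0.91 after compound 1 and between 0.26 and 0.66 after compound 2; with no filter on low values it was 0, since most of the 56 members are at or near 0. Median-of-ratios scaling brought the median of all genes after compound 1 to 0.01, and 55.8% of all genes past 2-fold were then higher, against 64.5% as deposited and 48.3% with the trend subtracted. Depth limits the low members most: an estimated 80 reads support SLC1A4, 120 SLC36A1, 130 SLC7A2 and 140 SLC6A9 with DMSO. Member values below 1 TPM rest on fewer.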
